A study of Mus musculus with 36 samples.

Results

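Emb, Hs6st1 and Scamp1 are 3 genes whose blood transcript levels stood apart in mice of the inbred strain A/J, with Emb and Hs6st1 high and Scamp1 low. All probe sets that the platform annotation gives to these symbols alone were taken, which were 6 of the 45037 probe sets of the array other than controls: 3 for Emb, 1 for Hs6st1 and 2 for Scamp1. All 6 passed the filter on brightness, as did 22518 probe sets in all, but Emb 1415856_at passed it only through its A/J arrays. The genes were picked from measured values, because the level in A/J differed from the mean of the other strains. That difference is therefore described here and not tested.

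The RNA came from peripheral blood of 18 untreated male mice, 8 weeks old, 3 each from A/J and from 5 other inbred strains, which were 129S1/ImJ, C3H/HeJ, C57Bl/6J, FVB/NJ and DBA/2J. Each of them supplied 2 of the 36 Affymetrix arrays, the first with GLOBINclear RNA, from which oligonucleotide capture had reduced alpha and beta globin mRNA, and the second with whole RNA of the same extract, still rich in globin mRNA from red cells and reticulocytes. Each strain is isogenic, so that its 3 mice share a genotype and the spread among them is not genetic. Levels are the deposited log2 summaries of expression, in which a difference of 1 is a factor of 2.

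Embigin, the product of Emb, is a membrane glycoprotein of the immunoglobulin superfamily. Like its relative basigin (Bsg), it escorts monocarboxylate transporters, which carry lactate and pyruvate, to the cell surface. Hs6st1 encodes a Golgi enzyme that adds sulfate to the 6-O position of heparan sulfate, the sugar chain of proteoglycans that binds growth factors and chemokines. Scamp1 encodes secretory carrier membrane protein 1, a protein of post-Golgi and endosomal vesicles that recycle membrane to the cell surface.

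In the RefSeq gene table (assembly GRCm38.p6) Emb lies on chromosome 13 from 117220573 to 117274415, Scamp1 on the same chromosome from 94201310 to 94285831, 22.9 Mb away, and Hs6st1 on chromosome 1 from 36068400 to 36106446. The 250 bases before the outermost annotated start of each gene, credited to RefSeq and read in the direction of the gene, are printed because the 3 genes stand apart in the same strain. They are those of the reference genome and not of A/J. Capitals mark matches to the motifs searched on both strands, which were the GC box GGGCGG, the GATA motif AGATAA, the ETS motif CCGGAAG, the E-box CACGTG and the TATA box TATAAA.
Emb promoter, chr13:117220323-117220572, plus strand: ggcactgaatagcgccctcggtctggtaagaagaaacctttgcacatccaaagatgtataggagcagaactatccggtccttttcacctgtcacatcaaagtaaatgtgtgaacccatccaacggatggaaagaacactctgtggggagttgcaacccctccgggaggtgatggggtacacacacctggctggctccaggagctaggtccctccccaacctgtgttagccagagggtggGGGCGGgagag
Hs6st1 promoter, chr1:36068150-36068399, plus strand: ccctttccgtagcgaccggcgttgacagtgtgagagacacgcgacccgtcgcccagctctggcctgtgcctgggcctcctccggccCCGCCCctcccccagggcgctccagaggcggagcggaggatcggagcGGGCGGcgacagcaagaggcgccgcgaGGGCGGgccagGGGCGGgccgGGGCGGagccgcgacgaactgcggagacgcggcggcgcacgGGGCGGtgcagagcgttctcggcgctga
Scamp1 promoter, chr13:94285832-94286081, minus strand: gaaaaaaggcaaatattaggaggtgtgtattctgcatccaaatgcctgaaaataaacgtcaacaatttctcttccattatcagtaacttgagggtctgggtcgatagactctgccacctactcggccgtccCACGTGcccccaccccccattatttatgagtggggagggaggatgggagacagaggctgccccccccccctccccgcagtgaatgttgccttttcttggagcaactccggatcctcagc

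Emb held 1 GC box, Hs6st1 held 6 (5 on the strand of the gene and 1 on the other) and Scamp1 held 1 E-box. GATA, ETS and TATA letters were in none of the 3 windows. Over the 32851 promoters given by RefSeq, 32.7% held a GC box in this window, 6.0% an E-box, 10.0% the GATA motif, 6.9% the ETS motif and 12.4% a TATA box. The Hs6st1 window was 76.4% G and C, at least as much as 97.2% of all promoters. The Emb window had 54.8% and the Scamp1 window 52.4%, next to a median of 52.4%. A window before another annotated Scamp1 start, which lies inside the gene and is not printed, had 78.8% G and C, at least as much as 98.4% of promoters, and held 1 GC box and no E-box. With that start a GC box lay before a start of each of the 3 genes, and a match is a match of letters only.

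Arrays of GLOBINclear RNA had 3802 to 5278 probe sets at log2 5 or more, and arrays of whole RNA had 2196 to 3122. In the Gapdh and beta-actin control sets the level at the 3' end minus that at the 5' end, which is larger when RNA is shortened, was 0.813 to 1.51 in GLOBINclear RNA and -0.176 to 0.632 in whole RNA. The median level of an array was 2.78 to 2.85 in GLOBINclear RNA and 2.86 to 2.94 in whole RNA, so values near or under log2 3 lie at the bottom of the scale, where differences are compressed. Each array's mean correlation with the others of its group was 0.944 to 0.990 in GLOBINclear RNA and 0.958 to 0.985 in whole RNA, lowest in both for C57Bl/6J replicate 1. The GLOBINclear array of DBA/2J replicate 3 was the only array of its kind that did not resemble its own whole array most (correlation of their deviations from the group means -0.0783).

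Emb stood higher in every A/J mouse than in any mouse of the other strains, on probe set 1415857_at. In GLOBINclear RNA the A/J arrays read 8.74, 9.26 and 9.04. The C3H/HeJ arrays read 5.46, 5.51 and 5.08, and the C57Bl/6J arrays 6.05, 4.83 and 4.12. The DBA/2J arrays read 4.68, 6.03 and 5.46, the FVB/NJ arrays 4.78, 4.05 and 5.04, and the 129S1/ImJ arrays 6.23, 5.41 and 7.60. A/J thus lay above all 15 other arrays by at least 1.14, and the array nearest to it was that of 129S1/ImJ replicate 3.

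In whole RNA the picture was alike. The Emb set 1415857_at read 8.14, 9.12 and 8.02 in A/J, 4.44, 4.70 and 4.40 in C3H/HeJ, and 5.20, 3.31 and 2.58 in C57Bl/6J. It read 3.28, 4.41 and 3.86 in DBA/2J, 3.42, 3.27 and 4.42 in FVB/NJ, and 4.81, 4.64 and 6.95 in 129S1/ImJ. No array of the other strains came within 1.07 of the lowest A/J array. The same mouse was the highest of its strain in both preparations in all 6 strains, and the same mouse was the lowest in 5.

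A/J exceeded the mean of the other 5 strains by 3.66 in GLOBINclear RNA, a 12.6-fold difference, and by 4.18 or 18.1-fold in whole RNA. Averaged over the 2 arrays of each mouse the difference was 3.92, next to a pooled SD of 0.776 between mice of a strain, and it was the largest positive difference among the 11353 genes tested. The strain means ran from A/J (8.72 ± 0.411, SD, n = 3) through 129S1/ImJ (5.94 ± 1.18), C3H/HeJ (4.93 ± 0.180), DBA/2J (4.62 ± 0.621) and C57Bl/6J (4.35 ± 1.16) to FVB/NJ (4.16 ± 0.536). A/J lay apart from 129S1/ImJ by 2.78. Each of the other neighbours in this order overlapped in the ranges of its mice.

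The Emb set 1415856_at gave a like order at a lower level. In A/J it read 6.44, 6.64 and 6.22 in GLOBINclear RNA, against 2.39 to 4.91 (median 3.14) on the 15 other arrays. In whole RNA the A/J arrays read 5.13, 5.27 and 4.81, and the other arrays 1.89 to 2.47 (median 1.94), which is under the median level of every array. The gap between A/J and the nearest other array was 1.31 in GLOBINclear RNA and 2.34 in whole RNA. The difference over mouse averages was 3.06. Over the arrays of the other strains this set averaged 3.32 in GLOBINclear RNA and 2.07 in whole RNA, against 3.20 over all arrays. The filter kept sets with a mean above 2.89. A/J alone thus brought this set into the tests, and its tests below carry that limit.

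The remaining Emb set, 1447286_at, did not set A/J apart. It lay between 3.31 and 3.38 in A/J and between 3.14 and 3.41 in the other strains in GLOBINclear RNA, and between 3.37 and 3.54 in A/J and 3.38 and 3.83 in the others in whole RNA. The ranges overlapped in both preparations, and the strain means spanned 3.40 to 3.51. With its mean of 3.44 this set was near the bottom of the scale, where differences are compressed.

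**Figure D1:**
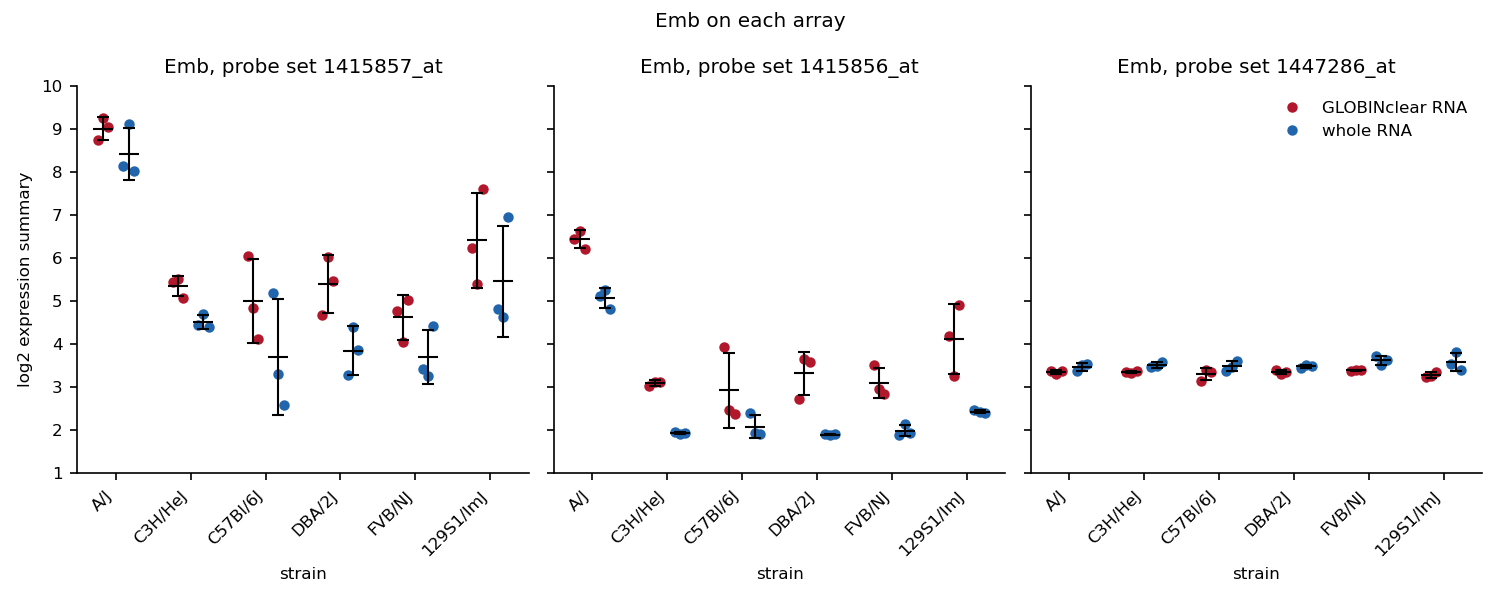
Levels of the 3 Emb probe sets on each array (vertical axis, log2 expression summary) by strain, with GLOBINclear RNA in red at the left and whole RNA in blue at the right of each strain. Points are single mice and bars are the mean ± SD of 3 mice. A/J lies above all other arrays on 1415857_at and 1415856_at, while 1447286_at is flat between 3.14 and 3.83.

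Hs6st1, measured by 1417293_at alone, was high in A/J, intermediate in C3H/HeJ and low in 129S1/ImJ, FVB/NJ and C57Bl/6J. DBA/2J was intermediate in GLOBINclear RNA, but in whole RNA only its replicate 1 stood above the low strains. In GLOBINclear RNA it read 7.53, 7.64 and 7.75 in A/J, 6.39, 6.34 and 7.28 in C3H/HeJ, and 6.14, 4.48 and 6.05 in DBA/2J. It read 3.73, 4.92 and 3.37 in 129S1/ImJ, 3.28, 3.07 and 3.25 in FVB/NJ, and 3.54, 2.77 and 3.23 in C57Bl/6J. The A/J arrays exceeded the highest other array, that of C3H/HeJ replicate 3, by only 0.252.

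In whole RNA Hs6st1 read 5.75, 5.23 and 5.15 in A/J, 4.50, 4.43 and 4.25 in C3H/HeJ, and 3.81, 2.32 and 2.31 in DBA/2J. DBA/2J replicates 2 and 3 were at the bottom of the scale. So were the other strains, with 2.24, 2.50 and 2.18 in 129S1/ImJ, 2.21, 2.21 and 2.04 in FVB/NJ, and 2.18, 2.05 and 2.23 in C57Bl/6J. A/J lay 0.647 above the nearest array. All 9 arrays of 129S1/ImJ, FVB/NJ and C57Bl/6J were under the median level of every whole RNA array, so that differences among these strains could hardly show there.

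A/J exceeded the mean of the other strains in Hs6st1 by 3.12 in GLOBINclear RNA and by 2.61 in whole RNA. Since most arrays of the other strains were at the bottom of the scale in whole RNA, no fold is given and the sizes rest on compressed values. The difference over mouse averages was 2.86 with a pooled SD of 0.403. It ranked at place 3 among the positive differences of the 11353 genes, behind Cd59a (2.90) and ahead of Atf2 (2.72). Against C3H/HeJ alone (6.51 ± 0.117 in A/J and 5.53 ± 0.206 in C3H/HeJ, SD, n = 3 each) it was 0.98, so A/J was the top of a graded pattern rather than a lone strain. DBA/2J followed at 4.19 ± 0.787, 129S1/ImJ at 3.16 ± 0.491, FVB/NJ at 2.68 ± 0.0589 and C57Bl/6J at 2.67 ± 0.232. DBA/2J overlapped with 129S1/ImJ and FVB/NJ with C57Bl/6J, while the ranges of the other neighbours did not overlap.

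Scamp1 was the mirror case, lower in every A/J mouse than in any other mouse on probe set 1426775_s_at. In GLOBINclear RNA it read 4.12, 4.31 and 4.08 in A/J, against 6.32, 6.04 and 6.24 in C3H/HeJ and 7.36, 8.10 and 8.38 in C57Bl/6J. It read 6.76, 6.95 and 7.13 in DBA/2J, 7.59, 6.28 and 7.64 in FVB/NJ, and 6.91, 6.80 and 6.73 in 129S1/ImJ. The highest A/J array lay 1.73 below the lowest other array. The suffix of this probe set marks probes that may match more than 1 transcript, and other transcripts could contribute to its signal.

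In whole RNA Scamp1 read 2.87, 3.42 and 2.45 in A/J, against 5.29, 4.49 and 4.69 in C3H/HeJ and 5.54, 6.65 and 6.57 in C57Bl/6J. It read 4.76, 5.16 and 4.95 in DBA/2J, 5.99, 4.72 and 5.87 in FVB/NJ, and 4.73, 4.85 and 4.96 in 129S1/ImJ. The groups were again apart, by 1.07. Here 2 of the 3 A/J arrays were at or near the median level of their array, so the size of the difference is compressed.

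A/J was lower than the mean of the other strains in Scamp1 by 7.19-fold in GLOBINclear RNA (-2.85), and in whole RNA by a difference of -2.37. Over mouse averages the difference was -2.61 with a pooled SD of 0.420, which ranked at place 2 among the negative differences, between Gdpd3 (-4.50) and Thbs1 (-2.42). A/J averaged 3.54 ± 0.302, C3H/HeJ 5.51 ± 0.272, 129S1/ImJ 5.83 ± 0.0154, DBA/2J 5.95 ± 0.167, FVB/NJ 6.35 ± 0.736 and C57Bl/6J 7.10 ± 0.568 (SD, n = 3 each). From A/J to 129S1/ImJ the neighbours in this order did not overlap, and from 129S1/ImJ to C57Bl/6J they did. The lowest mouse of a strain was the same in both preparations in 5 of 6 strains, and the highest in 2.

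The Scamp1 set 1453054_at, with a mean of 3.48, lay near the bottom of the scale. A/J read 3.17 to 3.34 and the other strains 3.14 to 3.89 in GLOBINclear RNA, which overlapped. In whole RNA A/J read 3.31 to 3.36 and lay 0.101 below the other arrays (3.46 to 4.28). The difference over mouse averages was -0.23, in the same direction as on 1426775_s_at.

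**Figure D2:**
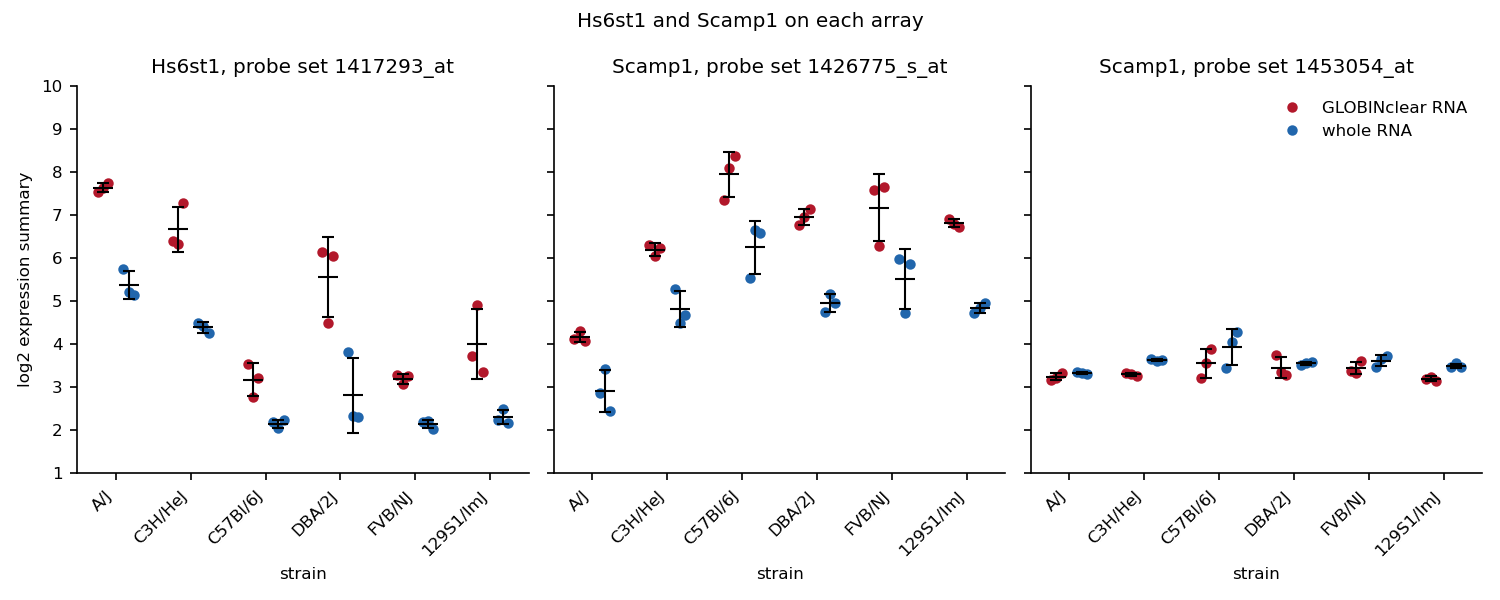
Levels of Hs6st1 and of the 2 Scamp1 probe sets on each array (vertical axis, log2 expression summary) by strain, with GLOBINclear RNA in red at the left and whole RNA in blue at the right. Points are single mice and bars are the mean ± SD of 3 mice. Hs6st1 is highest in A/J, followed by C3H/HeJ and DBA/2J, and Scamp1 on 1426775_s_at is lowest in A/J in both preparations.

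Over the whole array, A/J lay above every other array in both preparations on 27 of 22518 probe sets (0.12%) and below every other array on 27 (0.12%). The members' 3 sets above (Emb 1415857_at and 1415856_at, and Hs6st1) and 1 set below (Scamp1 1426775_s_at) are among them by choice. By limma on mouse averages, 1.55% of tested probe sets were called higher and 1.69% lower in A/J than in the mean of the other strains after Benjamini-Hochberg adjustment. Blood is a mixture of cells, and in such bulk samples fewer cells of a type and less RNA per cell cannot be told apart.

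The differences among the 5 strains other than A/J were not used to choose the genes and were tested with limma's F test on mouse averages. Hs6st1 differed among them, with strain means spanning 2.86 (adjusted p = 3.61e-05), and C3H/HeJ and DBA/2J made up the upper end. Scamp1 on 1426775_s_at differed with a span of 1.59 (adjusted p = 0.0302), from C3H/HeJ at the low end to C57Bl/6J at the high end. These were 2 of 6 sets, where 9.94% of all tested probe sets were called.

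The Scamp1 call was close to the threshold and ended when any of 4 mice was left out, with a span of 1.45 (adjusted p = 0.129) without C57Bl/6J replicate 2, 1.40 (adjusted p = 0.108) without C57Bl/6J replicate 3, 1.47 (adjusted p = 0.0733) without C3H/HeJ replicate 2 and 1.57 (adjusted p = 0.0690) without C3H/HeJ replicate 3. It also ended in whole RNA alone, where the span was 1.43 (adjusted p = 0.106). The Hs6st1 call held in all 18 such leave-outs, with adjusted p from 4.73e-06 to 0.000352.

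Emb did not pass on 1415857_at, with a span of 1.77 among the 5 other strains (adjusted p = 0.276), on 1415856_at (0.77, adjusted p = 0.158) or on 1447286_at (0.11, adjusted p = 0.963), and neither did Scamp1 on 1453054_at (0.40, adjusted p = 0.395). Spread within strains was large for Emb. In 129S1/ImJ replicate 3 read 7.60 and 6.95 in GLOBINclear and whole RNA, and without this mouse the span on 1415857_at was 1.11. In C57Bl/6J replicate 1 read 6.05 and 5.20, and without it the span was 2.22 (adjusted p = 0.0717). Without that C57Bl/6J mouse Emb passed on 1415856_at with a span of 1.10 (adjusted p = 0.0110) and Scamp1 on 1453054_at with 0.60 (adjusted p = 0.00392). No conclusion is drawn from that Emb call, since the set was tested only through its A/J arrays. In whole RNA the other strains read 1.89 to 2.47 on it, at the bottom of the scale.

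Both mice stood out in markers of other blood cells. The summed level of 11 neutrophil markers was 13.8 in 129S1/ImJ replicate 3 in GLOBINclear RNA, against 11.0 and 10.9 in replicates 1 and 2, and 12.8 against 9.07 and 9.86 in whole RNA, the highest of all arrays in each preparation. The summed level of 9 T cell markers was 10.7 in C57Bl/6J replicate 1 in GLOBINclear RNA, against 9.08 and 8.49 in replicates 2 and 3, and 9.44 against 7.81 and 7.47 in whole RNA, again the highest of all. The summed level of 9 B cell markers was the highest of all arrays in this mouse too, at 10.9 in GLOBINclear RNA and 9.37 in whole RNA. Their part in the Emb and Scamp1 levels of these mice was not tested. Without 129S1/ImJ replicate 3 the A/J difference of Emb on 1415857_at was 4.05, and without C57Bl/6J replicate 1 it was also 4.05.

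After globin depletion the 4 sets that set A/J apart rose in every mouse. On 1415857_at Emb averaged 5.97 ± 1.62 in GLOBINclear RNA and 4.94 ± 1.88 in whole RNA (SD, n = 18 each), a change of 1.02 ± 0.10 (SE, limma adjusted p = 1.27e-08, 18 of 18 mice), a call that ended with all arrays quantile normalized (0.12, adjusted p = 0.481). On 1415856_at it rose by 1.26 ± 0.11 (limma adjusted p = 2.92e-09, 18 of 18 mice). No conclusion is drawn from this call, since the set was tested only through its A/J arrays. Hs6st1 averaged 5.04 ± 1.83 in GLOBINclear RNA and 3.20 ± 1.32 in whole RNA, a rise of 1.84 ± 0.18 (limma adjusted p = 1.25e-08, 18 of 18 mice). Scamp1 on 1426775_s_at averaged 6.54 ± 1.26 in GLOBINclear RNA and 4.89 ± 1.12 in whole RNA, a rise of 1.66 ± 0.08 (limma adjusted p = 4.89e-13, 18 of 18 mice).

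The other 2 sets fell slightly on the deposited scale, Emb 1447286_at by 0.19 ± 0.03 (limma adjusted p = 1.85e-05, lower in 18 of 18 mice) and Scamp1 1453054_at by 0.23 ± 0.04 (limma adjusted p = 2.23e-05, higher in 2 of 18 mice), but both turned to rises of 1.89 and 1.85 when arrays were centred on the hybridization spike-ins, which moved the median of all tested sets to 2.03. The counts of 4 sets that rose and 2 that fell compare with 39.4% of all tested probe sets that rose and 47.6% that fell, so the calls alone do not set the members apart.

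Set beside probe sets within 0.25 log2 of its mean level, the rise of Emb on 1415857_at was smaller than their median (1.35, 563 sets) and that of Scamp1 on 1426775_s_at was larger (1.42, 465 sets). Of 2252 sets at the level of Hs6st1 the median change was 0.48, and 4.04% rose as much as Hs6st1 or more. Of 9951 sets at the level of Emb 1415856_at, 0.673% did, with a median of -0.16. The low mean of this set joins A/J arrays well above the bottom of the scale with others at its bottom. The mean of Hs6st1 likewise joins bright arrays of A/J and C3H/HeJ with arrays of other strains at the bottom of the scale. Sets of like mean are therefore no close match for either. The sets Emb 1447286_at and Scamp1 1453054_at were close to the medians at their levels (-0.16 and -0.15).

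**Figure D3:**
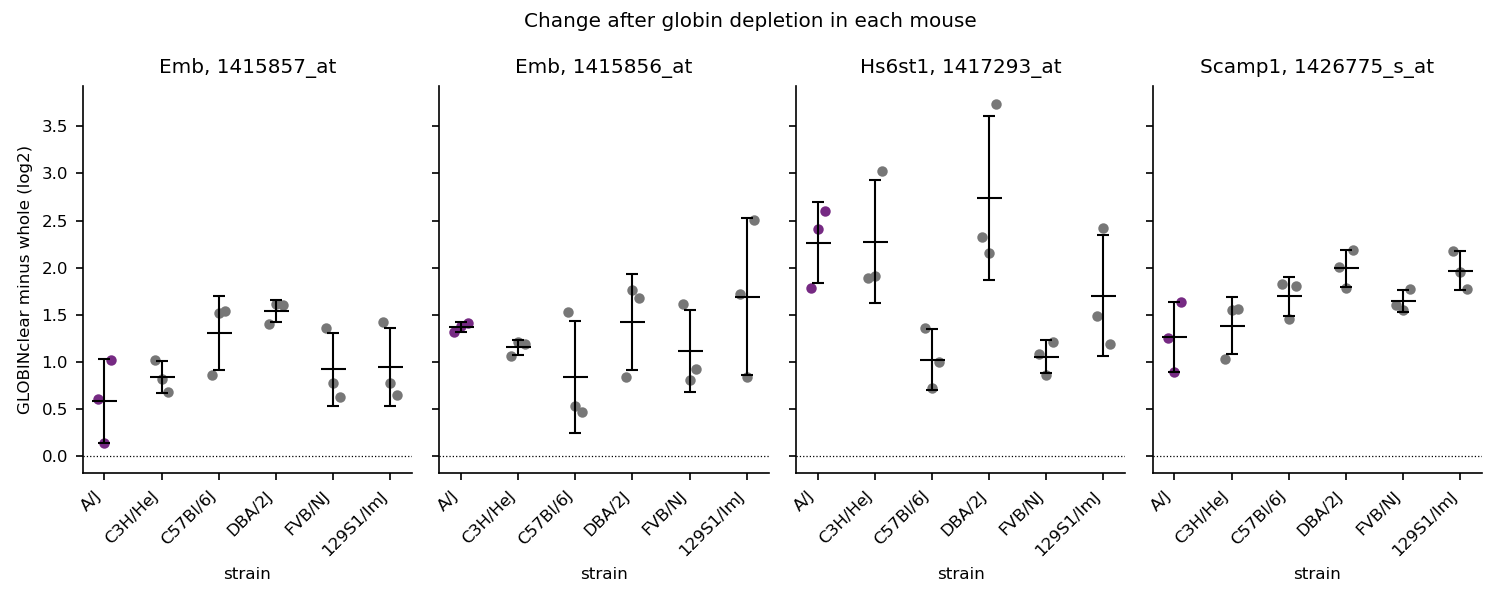
Change after globin depletion in each mouse (vertical axis, log2 level in GLOBINclear minus whole RNA) by strain for the 4 probe sets that set A/J apart. Points are mice (A/J in purple, the others in grey) and bars are the mean ± SD of 3 mice. All points lie above 0, and those of Hs6st1 range from 0.717 to 3.74.

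Whether the change after depletion differed between A/J and the other strains was tested within mice, which the choice of genes had not used. Emb on 1415857_at rose by 0.58 ± 0.443 in A/J (SD, n = 3), and by means of 0.84 in C3H/HeJ to 1.54 in DBA/2J in the other strains. The A/J effect minus that of the others was -0.53 ± 0.22 (SE, limma adjusted p = 0.420). It was 0.12 ± 0.29 on Emb 1415856_at (adjusted p = 0.860), 0.51 ± 0.33 for Hs6st1 (adjusted p = 0.589) and -0.48 ± 0.17 for Scamp1 1426775_s_at (adjusted p = 0.335) in the same limma fit. Leaving out single mice moved these values to between -0.744 and -0.301 for Emb 1415857_at, 0.0378 and 0.204 for Emb 1415856_at, 0.338 and 0.750 for Hs6st1, and -0.665 and -0.292 for Scamp1, with no call. The smallest for Emb 1415857_at and Scamp1 came without A/J replicate 2, and that for Hs6st1 without A/J replicate 3. Under quantile normalization of all arrays the last 3 differences turned to -1.14 (adjusted p = 0.0413), -0.49 (adjusted p = 0.598) and 0.81 (adjusted p = 0.115). The value of -1.14 is that of Emb 1415856_at, tested only through its A/J arrays, and no conclusion is drawn from it.

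In that limma contrast 0 of 6 sets passed, where 0.244% of all tested sets had a larger effect in A/J and 0.284% a smaller one. At an unadjusted p under 0.05 there were 2 of 6 sets, against 10.1% of all tested sets. The limma F test over all 6 strains passed 0 of the 6 sets as well, where 2.75% of all tested sets were called. At an unadjusted p under 0.05 there were 3 of 6 sets in this F test, against 14.5% of all. The widest span of strain effects was that of Hs6st1, at 1.72 (adjusted p = 0.102, and adjusted p = 0.0454 with quantile normalization within each preparation, where the span was 1.74). Its mean rise was 2.27 in A/J, 2.28 in C3H/HeJ, 2.74 in DBA/2J, 1.70 in 129S1/ImJ, 1.05 in FVB/NJ and 1.02 in C57Bl/6J. In the last 3 strains whole RNA was at the bottom of the scale, and so it was in DBA/2J replicates 2 and 3 (2.32 and 2.31). The largest single value, 3.74, was that of DBA/2J replicate 3, whose arrays did not resemble each other, and without this mouse the span was 1.25 (adjusted p = 0.119).

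The genes whose pattern over the 18 mice was most like that of each member were found by the root mean square distance between standardized mouse averages. For Emb they were Rnf145 (distance 0.537), Nudt9 (0.551), Ddit3 (0.630), Rnf13 (0.644) and Pnmt (0.658), against a median of 1.44 over all genes. Nudt9 averaged 5.94 in A/J and 3.72 to 5.14 in the other strains, with 129S1/ImJ next to A/J as for Emb. Ddit3, the stress-induced transcription factor CHOP, averaged 5.53 in A/J and 3.56 to 4.53 in the others. The likeness is one of shape only, since Rnf145 spanned 6.27 to 7.93 and Pnmt, near the bottom of the scale, 2.88 to 3.20.

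For Hs6st1 the nearest genes were Natd1 (0.454), Med16 (0.478), Myo1d (0.516), Galnt10 (0.527) and Ttc9 (0.534), with a median of 1.44 over all genes. Ttc9 averaged 5.18 in A/J, 5.60 in C3H/HeJ and 5.15 in DBA/2J, and 2.62 to 2.64 in the other strains. Natd1 averaged 4.16 in A/J and 3.83 in C3H/HeJ, and 2.50 to 2.64 in the others, DBA/2J among them. Med16, a subunit of the Mediator complex, averaged 5.52 in A/J, 5.11 in C3H/HeJ and 5.01 in DBA/2J, and 4.51 to 4.72 in the others. These genes thus shared the upper group of strains with Hs6st1 in whole or in part.

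For Scamp1 they were Cnp (0.376), Dmac1 (0.394), Dusp3 (0.413), Asap1 (0.425) and Tmem9b (0.454), with a median of 1.30. Dusp3, a dual-specificity phosphatase, averaged 3.81 in A/J, 4.63 in C3H/HeJ and 5.30 in DBA/2J, and 7.35 at the top in C57Bl/6J. Cnp averaged 8.25 in A/J and 9.25 to 10.5 in the other strains. A/J was lowest and C57Bl/6J highest in all 5, as in Scamp1. These genes were chosen for their likeness over the same mice and carry no test.

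**Figure D4:**
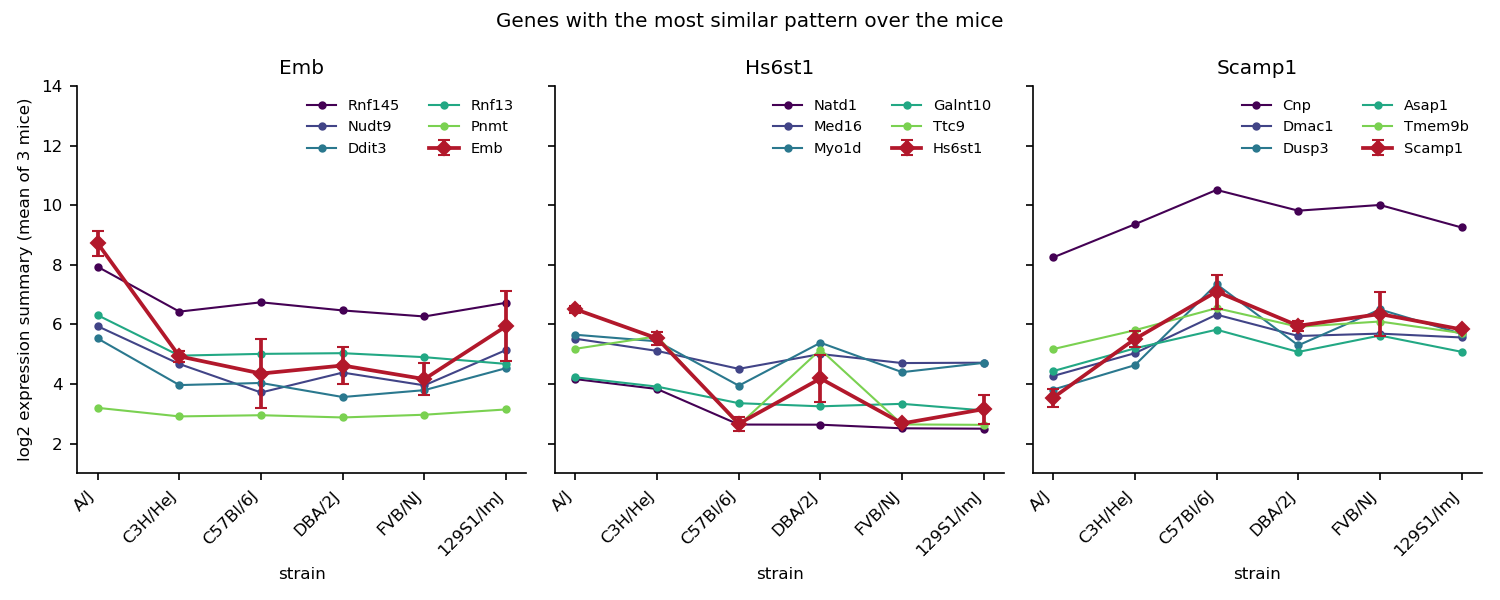
Strain means (vertical axis, log2 expression summary averaged over 3 mice and both preparations) of each member (red, with SD over 3 mice) and of the 5 genes with the most similar pattern. The genes were chosen for likeness, but some depart from the member in single strains, such as Ttc9, higher in C3H/HeJ (5.60) than in A/J (5.18). Levels differ, with Emb at 8.72 in A/J and Rnf145 at 7.93.

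The 10 tested genes on either side of each member were examined in the same contrast. Over all 11353 genes tested 1.5% were called higher and 2.08% lower in A/J. Around Emb 0 of 20 neighbours passed limma's test of A/J minus the others, with differences from -0.97 to 0.43 and a median of -0.03. The nearest was Parp8, 194.6 kb away. Around Hs6st1 1 of 20 passed, Arhgef4, 1256 kb away, which was higher in A/J by 0.46 ± 0.08 (SE, limma adjusted p = 0.00403), at 3.47 ± 0.201 in A/J and 2.89 to 3.11 in the other strain means. Arhgef4 did not pass in GLOBINclear RNA alone (0.26, adjusted p = 0.257), and its other tested set differed by -0.05.

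Around Scamp1 2 of 20 neighbours were lower in A/J, against 2.08% of all genes tested. Ap3b1, a subunit of the AP-3 adaptor complex 73.1 kb away, averaged 4.20 ± 0.324 in A/J (SD, n = 3) and 4.76 to 5.37 in the other strains, a difference of -0.74 ± 0.19 (SE, limma adjusted p = 0.0434). This call ended in 11 of 18 leave-outs and in whole RNA alone (-0.32, adjusted p = 0.923). F2rl2, the thrombin receptor PAR3 of mouse platelets, lies 1411 kb away and averaged 2.91 ± 0.0456 in A/J, but 2.71 in 129S1/ImJ and up to 6.36 in FVB/NJ (-2.19 ± 0.15, limma adjusted p = 7.2e-07). Its pattern therefore differed from that of Scamp1, which was not low in 129S1/ImJ, and its other tested set differed by -0.03. Most neighbours were dim. A mean of log2 4 or more was reached by 6 of the 20 around Emb, 4 around Hs6st1 and 5 around Scamp1.

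**Figure D5:**
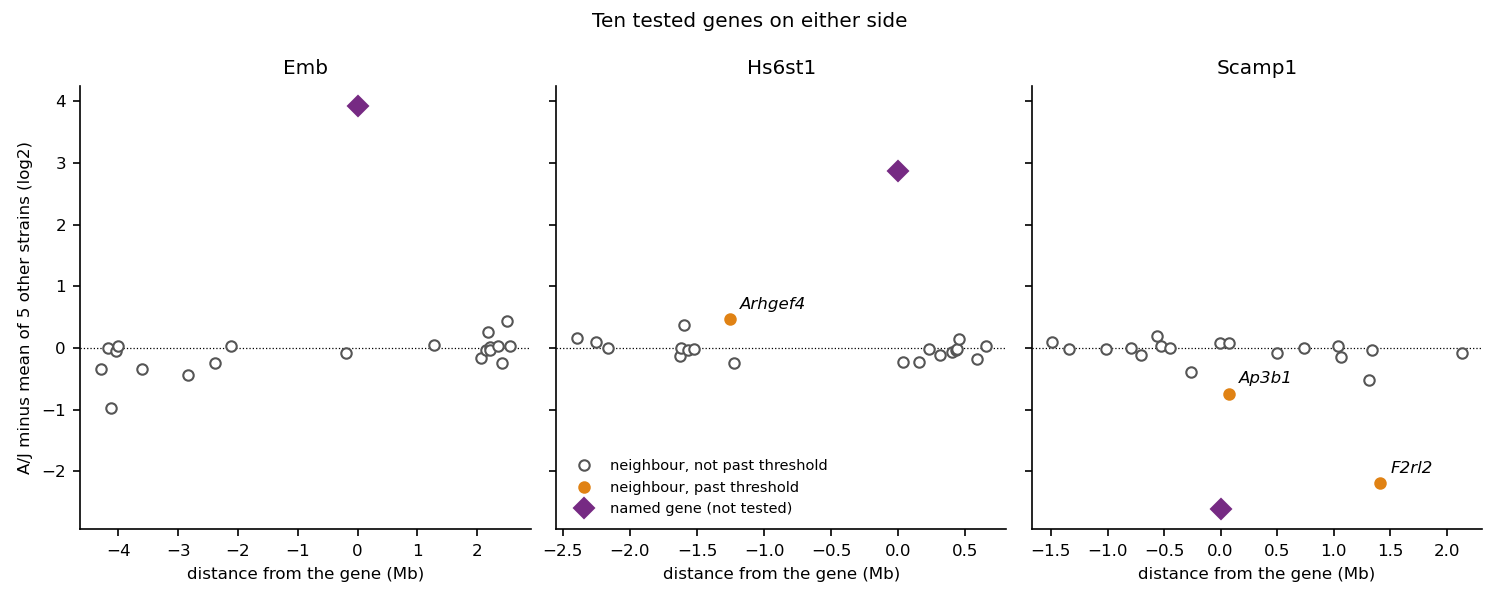
Difference between A/J and the mean of the 5 other strains (vertical axis, log2) for each member (diamond) and the tested genes on either side, by distance from the member in Mb. Filled circles passed limma's test. The members lie at 3.92, 2.86 and -2.61, and most neighbours lie near 0.

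Among the relatives and partners of embigin 1 gene passed the test in A/J. Of 6 genes of its family and of the monocarboxylate transporters, 1 was higher in A/J and 0 were lower, with a median difference of 0.02, while over all 11353 genes tested 1.5% were higher, 2.08% lower and the median was -0.02. The gene called was Slc16a1, which encodes the lactate transporter MCT1. It averaged 7.22 ± 0.588 in A/J (SD, n = 3) and 4.72 in 129S1/ImJ to 6.51 in FVB/NJ, a difference of 1.40 ± 0.36 (SE, limma adjusted p = 0.0474). The call ended in 14 of 18 leave-outs, with adjusted p up to 0.329. It also ended in 6 of 9 other settings. Among these were whole RNA alone (1.47, limma adjusted p = 0.143) and GLOBINclear RNA alone (1.32, limma adjusted p = 0.0513). Basigin (Bsg) stood at 10.5 in A/J and 10.0 to 11.2 in the others (-0.21, adjusted p = 0.857), and neuroplastin (Nptn) differed by -0.01. Slc16a3, Slc16a7 and Slc16a8 were near the bottom of the scale. After depletion 3 of the 6 rose and 3 fell, against 44.7% and 43.1% of all genes.

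Of 30 genes of heparan sulfate synthesis and sulfation 27 were on the array and 17 were tested. By limma 0 were higher and 0 lower in A/J, with a median difference of 0.03, and the difference nearest to the threshold by its adjusted p was that of Sulf2, the extracellular 6-O-endosulfatase that removes the sulfate group Hs6st1 adds (0.57 ± 0.21, adjusted p = 0.208). It averaged 6.77 in A/J and 5.97 to 6.51 in the other strains. The paralogs Hs6st2, at a mean of 2.94, and Hs6st3, at 2.32 and too dim to be tested, were at the bottom of the scale. After depletion 4 of the 17 rose, such as the nucleotide sulfate transporter Slc35b3 (1.17 ± 0.11), against 44.7% of all genes. A fall was seen in 12, most of them dim, against 43.1% of all genes, with Sulf2 falling most (-1.89 ± 0.13).

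Of 19 genes of the SCAMP family and of endosomal recycling 16 were tested, of which 1 was higher and 2 were lower in A/J, with a median of -0.17. Over all genes tested 1.5% were higher and 2.08% lower. Scamp2, the paralog of Scamp1, averaged 4.08 ± 0.233 in A/J and 4.28 to 5.61 in the other strains (-0.85 ± 0.20, limma adjusted p = 0.0302), and its other tested set was called lower too (-0.72). The SNARE gene Stx4a, which encodes syntaxin 4, averaged 3.69 ± 0.206 in A/J and 4.15 to 4.77 in the others (-0.64 ± 0.15, limma adjusted p = 0.0323). Eps15, an endocytic adaptor gene, was higher at 7.33 ± 0.154 in A/J and 6.34 to 6.73 in the others (0.82 ± 0.19, limma adjusted p = 0.0268). Its 2 other tested sets differed by -0.01 and 0.38 without a call.

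The calls of Scamp2 and Eps15 ended when any 1 of the 3 A/J mice was left out, with adjusted p up to 0.226 and 0.205, and that of Stx4a also without DBA/2J replicate 3, with adjusted p up to 0.263. All 3 calls also ended with no filter on dim sets and in whole RNA alone, where limma's adjusted p was 0.200 for Scamp2, 0.308 for Eps15 and 0.205 for Stx4a. Scamp3 (-0.23, adjusted p = 0.466) did not pass. The transferrin receptor gene Tfrc, a cargo of recycling endosomes and abundant in reticulocytes, averaged 10.4 ± 1.56 in A/J and 6.35 to 10.4 in the others (1.86 ± 0.50, adjusted p = 0.0566). After depletion 15 of the 16 rose and 1, Itsn1 (-0.80 ± 0.12), fell, against 44.7% and 43.1% of all genes. The list was not compared with genes of like mean level.

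Markers of blood cell types also differed in A/J, and their part in the levels of Emb, Hs6st1 and Scamp1 was not tested. Over all genes tested 1.5% were called higher and 2.08% lower. Of 10 red cell markers 1 was higher, Rhag (1.73 ± 0.45, limma adjusted p = 0.0487), 0 were lower and the median difference was 0.56. Their summed level was 14.8 on all A/J arrays of GLOBINclear RNA, within the range of the other strains (14.5 to 15.0). In whole RNA it was 14.6 to 14.7, against 14.4 to 14.8. As a sum of unlogged values it follows chiefly the brightest marker, Alas2 (mean level 14.2, difference -0.04). It says little about dimmer markers, of which Ank1 (1.19) and Gata1 (-0.22) had the largest uncalled differences in either direction. Of 9 platelet markers 3 were lower, Gp5 (-1.07), Itgb3 (-0.96) and Gp1bb (-0.78), with a median of -0.63. Their sum was 14.6 to 14.8 in A/J and 14.5 to 15.5 in the others in GLOBINclear RNA, and 13.7 to 14.1 in A/J against 13.1 to 15.1 in whole RNA.

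Lymphocyte and myeloid markers had low medians in A/J with few calls. T cell markers had 1 of 9 lower, Lat (-0.99), and a median of -0.45, with sums of 7.95 to 8.50 in A/J and 8.32 to 10.7 in the others in GLOBINclear RNA, and 7.02 to 7.47 against 7.34 to 9.44 in whole RNA. B cell markers had 1 of 8 lower, Ms4a1 (-2.08), with a median of -0.57 and sums of 7.76 to 9.29 in A/J and 8.04 to 10.9 in the others in GLOBINclear RNA, and 6.45 to 7.54 against 6.52 to 9.37 in whole RNA. Monocyte markers had 1 of 9 lower, F13a1 (-1.30, limma adjusted p = 0.000772), with a median of -0.46 and sums of 11.0 to 11.2 in A/J and 11.1 to 13 in the others in GLOBINclear RNA, and 9.85 to 10.4 against 10.3 to 12.4 in whole RNA. The A/J sums overlapped with those of the other strains in each of these lists. Of the monocyte markers, F13a1 (mean level 9.19) and Lyz2 (10.7) were far brighter than the rest (2.94 to 4.26). Which cells gave the F13a1 signal was not tested.

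Of 7 tested neutrophil markers 0 were called in limma, with a median of -0.72 and sums of 9.0 to 10.3 in A/J and 8.94 to 13.8 in the others in GLOBINclear RNA, and 7.68 to 8.43 against 7.33 to 12.8 in whole RNA. Of 7 NK cell markers 0 were called, with a median of -0.16 and sums of 6.42 to 7.36 in A/J and 6.37 to 9.25 in the others, and 5.98 to 6.26 against 5.83 to 8.14 in whole RNA. Of 6 tested progenitor markers 1 was lower, Slamf1 (-1.11), with a median of 0.00. Slamf1 had a mean level of 8.44, and which cells gave its signal was not tested. Kit (mean level 3.14), Cd34 (2.70) and Flt3 (3.11), like the neutrophil precursor genes Elane (2.37) and Mpo (2.57), were near the bottom of the scale on average. Except that of F13a1, each of these marker calls ended in some of the 18 leave-outs. The calls of Gp5, Itgb3 and Gp1bb ended in 2 each. That of Lat ended in 9, that of Ms4a1 in 11, that of Rhag in 14 and that of Slamf1 in 15.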

How the data were processed

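Blood RNA of 18 mice was measured on 36 arrays, a GLOBINclear and a whole RNA array per mouse. The authors deposited log2 summaries of expression for each probe set on each array, a scale inferred from the range of the values. GCRMA, MAS5 and affy are named in the submitters' processing notes without version, role or order, and the sources used here do not say whether the preparations were normalized jointly. Groups came from the titles, 0 value columns were left unused, and no 2 arrays were identical. For 129S1/ImJ, the name in the labels, the protocol text has 129S1/SvImJ. Signal over background cannot be had from summaries, and the number of arrays limits the precision.

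The 64 control sets were set aside. Dim probe sets, with an average at or under the median average (log2 2.89), were not tested. Of all 45037 sets other than controls, dim ones included, 34945 had 1 gene symbol in the platform annotation, 932 several and 9160 none. A gene was represented by its set with the highest mean. Positions and promoters came from RefSeq (GRCm38.p6), which placed 11287 of 11353 tested genes and matched 3 of 3 members.

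Fits used limma 3.58.1 in R 4.3.3 with data.table version 1.17.8, using eBayes, an intensity trend and Benjamini-Hochberg adjustment over all tested sets at 0.05. The model of depletion had the mouse as a fixed block, since the series design says that both arrays came from the same animal. The 2 arrays of a mouse deviated together (correlation -0.0783 to 0.664, median 0.379), and 17 of 18 GLOBINclear arrays resembled their own whole array most. An effect per strain gave the interaction. Strains were compared on mouse averages (the mean of a mouse's 2 arrays). A summed marker level is the log2 of the sum of unlogged values, in which the brightest markers weigh most. Tests were tried on simulated data, in which 86% of genes changed by log2 1 in A/J, 100% of those changed by log2 3 and 81% of those changed by log2 1 in C3H/HeJ alone were recovered among 22518. Figures used python 3.11.15, matplotlib 3.10.9 and pandas 2.3.3.

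Genes were named by rule: all members' sets, the 5 most alike genes per member, up to 3 called genes per pathway list and up to 3 called of the 10 tested neighbours on either side. Nptn, Bsg, Tfrc, Scamp3, Sulf2, Slc35b3, Itsn1, the genes next to the members in rank and the marker genes were named after their values were seen. The members, lists and rules were chosen with earlier results of these data known. Alternatives changed the scaling, the filter, the eBayes trend, the gene summary, the block and the preparation, and left out each mouse in turn.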

Additional observations from a re-analysis of the deposited data

How the results depend on the processing

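Over all alternatives tried, Emb (1415857_at and 1415856_at) and Hs6st1 were above the mean of the other strains in A/J, and Scamp1 1426775_s_at was below it. Averaging all sets of a gene gave smaller differences (Emb 2.32, Scamp1 -1.42), since sets with small differences enter the mean, and the Emb set 1447286_at turned to 0.00798 with quantile normalization within each preparation and to 0.0169 in GLOBINclear RNA alone. The rise of Emb 1415857_at after depletion was 0.12 (adjusted p = 0.481) with all arrays quantile normalized, where the A/J effect minus that of the others turned to -1.14 (Emb 1415856_at), -0.49 (Hs6st1) and 0.81 (Scamp1). Spike-in centring, which moved the median of all sets to 2.03, against -0.05 on the deposited scale, turned 2 falls to 1.89 (Emb 1447286_at) and 1.85 (Scamp1 1453054_at). The span of the Hs6st1 effect over 6 strains passed with quantile normalization within each preparation (1.74). The cause was not tested for the scalings. The Scamp1 span among the 5 other strains lost its call with quantile normalization within each preparation (1.34, adjusted p = 0.0995) or of all arrays (1.35, adjusted p = 0.107), with no filter (1.59, adjusted p = 0.0649) and in whole RNA alone (1.43, adjusted p = 0.106).

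Replicate numbers do not pair mice of different strains, whose deviations correlated at -0.454 to 0.540 (median 0.0264, 45 pairs). With the number as a replicate block the Scamp1 span of 1.59 had an adjusted p of 0.0586, that of Hs6st1 stayed at 2.86, and the counts called were 2097 for the 5 strains, 324 for A/J higher and 378 for A/J lower. The mouse left out of the model (no replicate block) ended no call of a member after depletion.

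Leaving out each mouse in turn gave spans among the 5 strains of 1.40 to 1.92 for Scamp1 1426775_s_at, 0.23 to 0.60 for Scamp1 1453054_at and 0.58 to 1.10 for Emb 1415856_at. The count of sets higher in A/J (349) was 156 to 482 and that of sets lower (380) was 108 to 531 in these leave-outs, lowest without A/J replicate 3. In whole RNA alone these counts were 94 and 92, and the first was 569 with quantile normalization within each preparation. Of the other counts, 2238 sets that differed among the 5 strains were 898 in whole RNA alone, and 619 whose effect differed over 6 strains were 355 with all arrays quantile normalized. Sets that rose and fell after depletion numbered 8864 and 10723 on the deposited scale and 22483 and 13 after spike-in centring, and 28738 fell with no filter. Rises were 45.3% of those calls on the deposited scale, 52.6% after median centring, 45.2% and 37.1% after quantile normalization within each preparation and of all arrays, 25.5% with no filter and 99.9% after spike-in centring.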
